A study of Mus musculus with 9 samples.

Results

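The proteasome genes named Psma to Psmg were followed in the livers of wild-type and Msr1-/- mice, with the 5 interferon-inducible members Psmb8, Psmb9, Psmb10, Psme1 and Psme2 set against the rest. Members were all rows of the deposited expression table whose symbol starts with Psm, a letter from a to g and a digit, which gave 50 of 17442 genes. RNA was sequenced from the livers of 9 male C57BL/6 mice, 4 wild type (Msr1+/+) and 5 Msr1-/-, labelled as having fatty liver disease. All 9 had eaten a high-fat, high-cholesterol diet for 16 weeks, and each animal gave 1 library. The age of the mice and the exon targeted in the Msr1 allele are not given in the sources used here, and livers on a control diet were not analysed here. Msr1 encodes macrophage scavenger receptor 1, an uptake receptor for modified lipoproteins, and the comparison asked what differs in the fatty liver without it.

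The proteasome is the protease that breaks down proteins tagged with ubiquitin. Its 20S core is a barrel of alpha and beta rings, in which Psmb5, Psmb6 and Psmb7 encode the constitutive catalytic subunits. A 19S cap, with an ATPase ring built from Psmc products and further subunits from Psmd genes, recognises ubiquitin and unfolds the substrate. Interferon gamma induces Psmb8, Psmb9 and Psmb10, whose products replace the constitutive catalytic subunits Psmb5, Psmb6 and Psmb7 to give the immunoproteasome. It also induces Psme1 and Psme2, the subunits of the 11S activator, and the immunoproteasome is known for supplying peptides to MHC class I. Immune cells carry immunoproteasomes without stimulation, and hepatocytes gain them in inflammation.

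Values are normalised read counts, that is gene read counts divided by the size factor of each liver. Between 15006773 and 18238932 reads per liver were recovered from the table. Each fold change is a difference of log2(value + 1), Msr1-/- minus wild type, so differences of weakly read genes come out too small. A gene was called when limma's Benjamini-Hochberg adjusted p over all 12937 tested genes was under 0.05, and the tested genes were those with a mean of 10 or more. Wild type 3 stood apart from the other livers, at 88.7 on the first principal component of all tested genes (41.0% of the variance) against -27.6 to 8.30 in the other 8. Values without it are given beside the results that it moves most. Msr1 itself was read in all 9 livers, at 278 ± 125 (SD, n = 4) in wild type and 175 ± 23.0 (SD, n = 5) in Msr1-/- (two-sided exact permutation p = 0.0476, with 0.0159 the smallest this design allows). In 8 of the 9 repeats of this permutation test with a liver left out, p was above 0.05, up to 0.107 without wild type 3. Leaving out a liver also raises the smallest p that the test can give. The exons behind these reads are not visible in a gene's total, so this level does not check the labels.

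No proteasome gene was called. Of the 50 members, 48 were abundant enough for the test, and 0 passed the threshold in limma, where 1.37% of all tested genes did. On the recovered reads edgeR and DESeq2 also called 0 members, against 1.43% and 6% of all genes, and limma with array weights called 0 against 4.1%. At an unadjusted p under 0.05 limma found 2 of the 48 members (4.17%), Psmd14 higher and Psmg4 lower, beside 15.3% of all tested genes. At that level edgeR found 2 members, beside 15.6% of all genes, and DESeq2 found 5, beside 16.5%. The lowest limma adjusted p among members was 0.210, for Psmg4.

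Most members were measured precisely enough to bound the difference. The 95% interval of the fold change lay within 1.5-fold in either direction for 38 of the 48 tested members, and for 45.5% of all tested genes. Psma5, Psma8, Psmb7, Psmb8, Psmb10, Psmd1, Psmd8, Psmd11, Psmd14 and Psmg4 were the 10 with wider intervals. The median standard error was 0.128 over the members and 0.191 over all tested genes. In the plot of fold changes, log2 fold changes ran from -0.46 for Psmg4 to 0.44 for Psmb7. Psmb6-ps2, a processed pseudogene, and Psmc3ip, which encodes a protein of meiotic recombination and no subunit, were too low for the test. Psmb6-ps2 stood between 0.979 and 2.74 in the 9 livers, and Psmc3ip between 2.34 and 15.9.

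**Figure D1:**
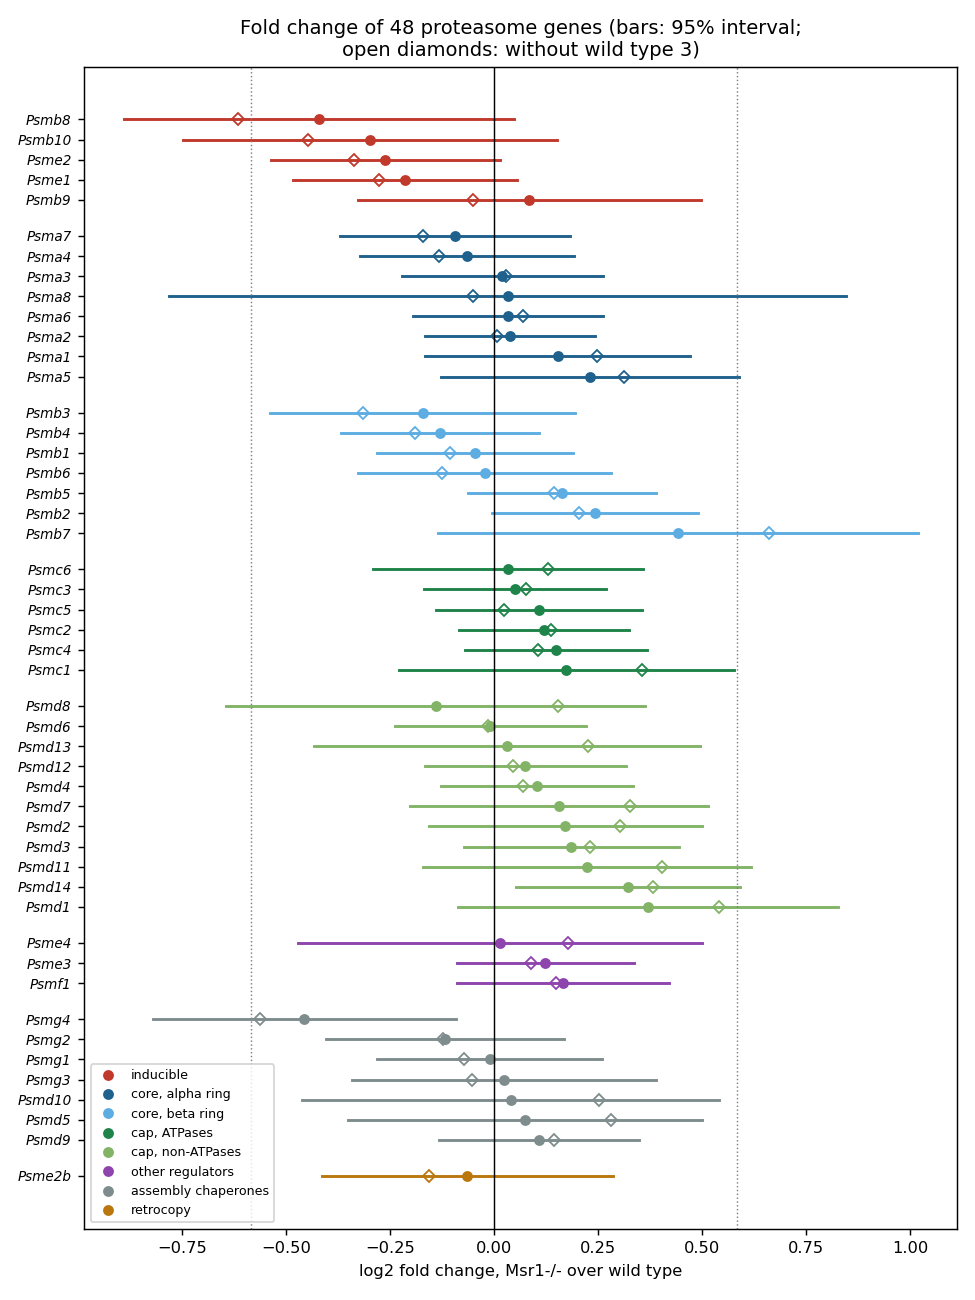
Log2 fold change of the 48 tested proteasome genes (x axis, Msr1-/- over wild type, log2 scale) by class, with points for the estimate on all 9 livers, bars for its 95% interval from limma, open diamonds for the estimate without wild type 3 and dotted lines at 1.5-fold in either direction. In 38 genes the bar stays between the dotted lines, and 4 of the 5 inducible genes lie left of 0.

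The inducible members stood lower on balance in Msr1-/- livers, with none past the threshold. Of the 5, 4 had a negative log2 fold change, with a median of -0.26, while 31 of the 43 other tested members were positive, with a median of 0.05. Over all tested genes 52.7% were positive and the median was 0.02. Without wild type 3 the median of the inducible members was -0.34, with 5 of 5 negative, and that of the other members was 0.10. Without Msr1-/- 1 the inducible median was -0.15. These medians describe lists chosen with the results known, and no test was made on them.

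Psmb8 encodes the inducible counterpart of Psmb5, the chymotrypsin-like catalytic subunit, and lies in the MHC region on chromosome 17 (34197721 to 34201454 in mm10, plus strand). It stood at 738, 785, 399 and 555 in wild type 1 to 4 and at 316, 475, 518, 453 and 508 in Msr1-/- 1 to 5. Wild type 1, 2 and 4 lay above all Msr1-/- livers, while wild type 3 lay among them and Msr1-/- 1 was the lowest of the 9. The means were 619 ± 177 and 454 ± 81.4, a log2 fold change of -0.42 with a standard error of 0.21 (95% interval -0.89 to 0.05, limma adjusted p = 0.389). With wild type 3 left out, wild type averaged 693 ± 121 (n = 3) and Msr1-/- was 1.53-fold lower, with a limma adjusted p of 0.0673, an edgeR adjusted p of 0.0573 and a DESeq2 adjusted p of 0.0182. Only DESeq2 without that liver called it, in a fit that called 8.26% of all genes. The edgeR fit called 5.12% and the limma fit 4.91%. Without Msr1-/- 1 the log2 fold change of Psmb8 was -0.30 (limma adjusted p = 0.595).

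Psmb10, the inducible counterpart of Psmb7 with trypsin-like activity (chromosome 8, 105935735 to 105938444 in mm10, minus strand), read 852, 914, 536 and 689 in wild type and 394, 612, 651, 638 and 744 in Msr1-/-. Its order was much like that of Psmb8, with wild type 1 and 2 highest, but Msr1-/- 5 exceeded wild type 4. The log2 fold change was -0.30 (standard error 0.20, limma adjusted p = 0.552), and -0.45 without wild type 3 (adjusted p = 0.19). It was -0.15 without Msr1-/- 1 and -0.19 without wild type 2 (limma adjusted p = 0.781 and 0.737).

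Psmb9, the inducible counterpart of Psmb6, did not share this order. Its values were 574, 389, 304 and 394 in wild type and 322, 460, 472, 499 and 417 in Msr1-/-. Wild type 1 was the highest liver, and Msr1-/- 2 to 5 lay above the other 3 wild-type livers. The means were 415 ± 114 and 434 ± 69.3, with a log2 fold change of 0.08 (95% interval -0.33 to 0.50, limma adjusted p = 0.894) that was -0.05 without wild type 3. Psmb9 (chromosome 17, 34181987 to 34187764, minus strand) and the peptide transporter gene Tap1 start from opposite strands, and their annotated exons overlap by 212 bases. No strand setting of the counting is given in the sources used here, so reads from that stretch cannot be told apart. Psmb8 likewise overlaps the opposite-strand gene Gm20496.

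The 11S activator subunit genes differed by small amounts. Psme1 (chromosome 14, 55578123 to 55581529, plus strand) stood at 1937, 2044, 1603 and 1736 in wild type and at 1275, 1769, 1627, 1623 and 1598 in Msr1-/-. Psme2 (chromosome 14, 55587441 to 55591113, minus strand), its neighbour 5911 bases away, stood at 1630, 1535, 1207 and 1314 against 975, 1192, 1262, 1238 and 1244. In both genes wild type 1 and 2 were the highest livers, Msr1-/- 1 the lowest, and wild type 3 below some Msr1-/- livers. The log2 fold changes were -0.21 (95% interval -0.48 to 0.05, limma adjusted p = 0.454) for Psme1 and -0.26 (95% interval -0.54 to 0.01, limma adjusted p = 0.355) for Psme2. Without Msr1-/- 1 they were -0.14 and -0.19. Without wild type 3 they were -0.28 and -0.34 (limma adjusted p = 0.214 and 0.135). The retrocopy Psme2b, at 162 ± 33.2 against 153 ± 17.4, resembles Psme2 closely, so some reads may be split between the copies.

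**Figure D2:**
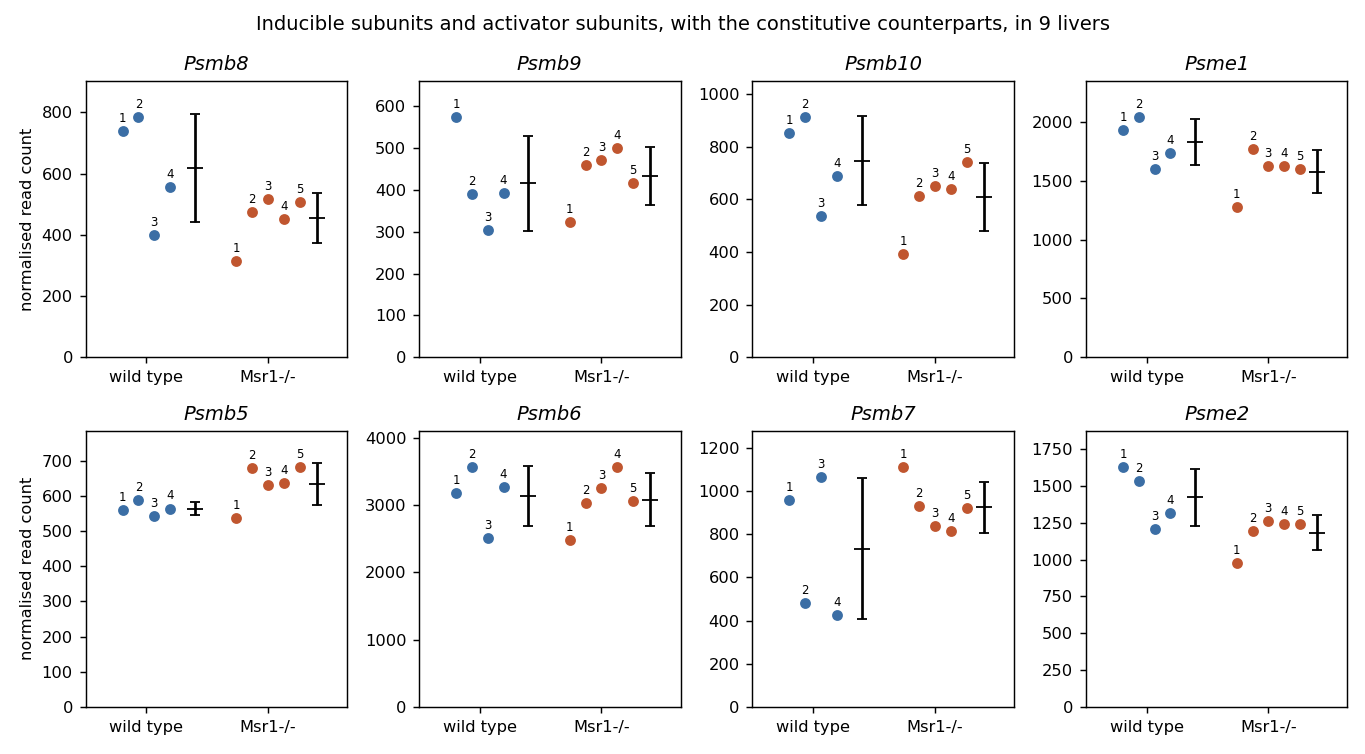
Normalised read count (y axis, from 0) of the inducible subunit genes Psmb8, Psmb9 and Psmb10 above their constitutive counterparts Psmb5, Psmb6 and Psmb7, with the activator genes Psme1 and Psme2 at the right, in 4 wild-type and 5 Msr1-/- livers. Points are livers with their animal number, and the bar beside each group is the mean ± SD. Wild type 3 and Msr1-/- 1 are the lowest livers of their genotypes in each of the 5 inducible genes.

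The constitutive counterparts went in no common direction. Psmb5, which carries the chymotrypsin-like site, was tight in wild type at 560, 590, 543 and 564, and read 538, 680, 632, 637 and 683 in Msr1-/-. Msr1-/- 2 to 5 lay above all wild-type livers and Msr1-/- 1 below all of them (log2 fold change 0.16, 95% interval -0.06 to 0.39, limma adjusted p = 0.514). Psmb6, the caspase-like subunit gene, stood at 3132 ± 445 against 3079 ± 398, a log2 fold change of -0.02 (95% interval -0.33 to 0.28). Psmb7 split the wild-type group, with 960 and 1065 in wild type 1 and 3 but 480 and 424 in wild type 2 and 4. Its Msr1-/- livers read 1113, 933, 838, 814 and 923, within or near the range of wild type (log2 fold change 0.44, 95% interval -0.13 to 1.02, limma adjusted p = 0.478). Leaving out wild type 3 gave 0.66 for Psmb7, while leaving out wild type 2 or 4 gave 0.28 or 0.22. With array weights it was 0.71 (limma adjusted p = 0.0651).

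Set per kilobase of the principal transcript and within each liver, the inducible subunits read below their counterparts in most livers. The ratio of Psmb8 to Psmb5 was 0.727, 0.735, 0.406 and 0.543 in wild type 1 to 4 and 0.324, 0.385, 0.452, 0.392 and 0.411 in Msr1-/- 1 to 5. Wild type 1, 2 and 4 exceeded the whole Msr1-/- range, and wild type 3 lay inside it. The means were 0.603 ± 0.158 and 0.393 ± 0.0466, and 0.668 ± 0.109 in wild type without wild type 3. These ratios rest on the longest principal transcript of each gene, 1628 bases for Psmb8 and 899 for Psmb5. Undivided by length, Psmb8 averaged 619 ± 177 and Psmb5 564 ± 19.3 in wild type, so Psmb8 was not the lower there. In Msr1-/- they averaged 454 ± 81.4 and 634 ± 58.6. Which transcript was read was not tested. For Psmb9 to Psmb6 the ratio was low everywhere, at 0.0784 ± 0.0190 against 0.0830 ± 0.00503, with wild type 1 alone at 0.107. Psmb10 to Psmb7 was the most variable, at 0.785, 1.68, 0.445 and 1.44 in wild type and 0.313 to 0.714 in Msr1-/-, since Psmb7 was low in wild type 2 and 4. The 3 pairs thus differed in their pattern, and no test was made on ratios of chosen members.

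**Figure D3:**
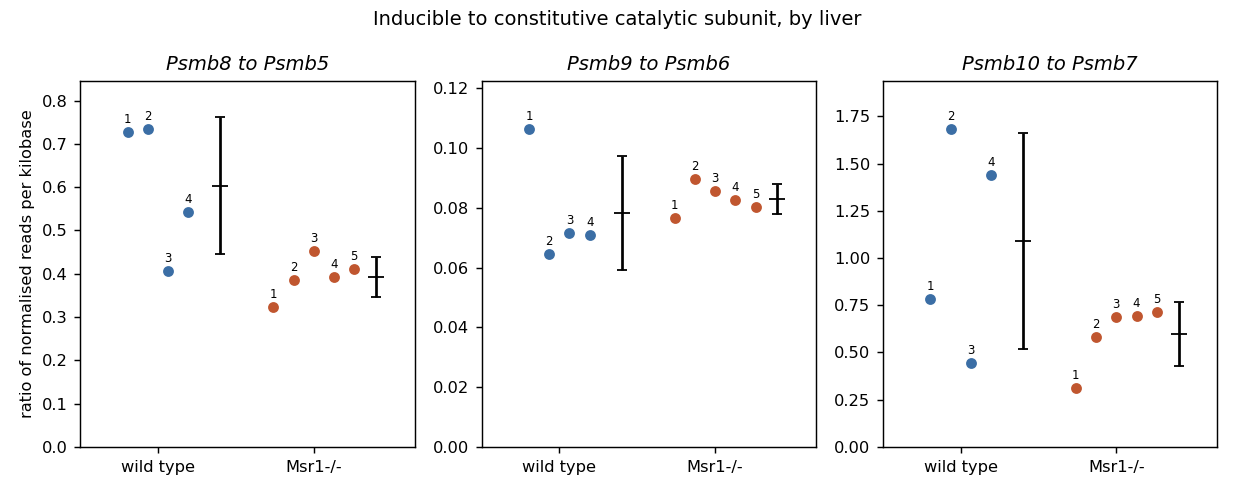
Ratio of each inducible catalytic subunit gene to its constitutive counterpart (y axis, ratio of normalised reads per kilobase of principal transcript, from 0) in 4 wild-type and 5 Msr1-/- livers. Points are livers with their animal number and bars the mean ± SD. For Psmb8 to Psmb5, wild type 1, 2 and 4 lie above the 5 Msr1-/- livers, which run from 0.324 to 0.452.

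Promoter windows of RefSeq (GRCm38.p6, the assembly of mm10; 250 bases before to 50 after each start) were found for 41 of the 50 members and searched on both strands for 3 motifs. These were an IRF element, GAAA and GAAA parted by any 2 bases, the site of interferon regulatory factors, a GAS element, TTCNNNGAA, found at genes that respond to interferon gamma, and an antioxidant response element, TGACNNNGC, bound by NRF factors that control constitutive subunit genes. Of the 5 inducible members, Psme1 held an IRF match and Psmb8 a GAS match, and none held the antioxidant response element. Of the 36 other members with a window, 4, 2 and 6 held the IRF, GAS and antioxidant motifs. Over all 27025 genes with a window, the shares were 3.99%, 9.55% and 13.99%. No 2 matches in a member's window overlapped. Shown are the matches of Psme1 and Psmb8, each of which starts within an annotated exon of its gene. The upstream sequence of the constitutive counterparts Psmb5 and Psmb6, whose windows carry the antioxidant motif, is also shown. Capitals mark the match, and a match is a description of letters, not of binding. Psme1, chr14:55578493-55578522, plus strand, match 10 bases after the start on the opposite strand:
Psme1: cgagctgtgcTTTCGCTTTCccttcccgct
Psmb8, chr17:34198088-34198117, plus strand, match from 97 bases before the start:
Psmb8: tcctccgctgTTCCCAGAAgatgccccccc
Psmb5, chr14:54618023-54618172, minus strand, match from 47 bases before the start:
Psmb5: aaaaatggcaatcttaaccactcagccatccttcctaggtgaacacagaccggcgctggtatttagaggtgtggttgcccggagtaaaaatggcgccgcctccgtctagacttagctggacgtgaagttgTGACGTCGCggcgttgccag
Psmb6, chr11:70525207-70525356, plus strand, match from 9 bases before the start:
Psmb6: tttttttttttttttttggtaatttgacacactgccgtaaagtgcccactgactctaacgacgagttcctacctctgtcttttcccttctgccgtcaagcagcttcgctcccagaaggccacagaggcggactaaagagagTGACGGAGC

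Genes of the 20S core differed little on balance between genotypes, with no call. Of 8 alpha ring genes 6 had a positive log2 fold change, with a median of 0.03 and a range from -0.09 to 0.23, and 6 had intervals within 1.5-fold. The smallest p values in this ring belonged to Psma5 (489 ± 120 against 562.2 ± 47.2, limma adjusted p = 0.570) and Psma1 (1699 ± 346 against 1864 ± 178, limma adjusted p = 0.70). Psma8, the alpha subunit of the testis proteasome, was the lowest tested member, between 10.4 and 25.4 in the 9 livers. Of 7 beta ring genes, Psmb5, Psmb6 and Psmb7 included, 3 were positive and 4 negative, with a range from -0.17 to 0.44. Their median was -0.02, which was -0.11 without wild type 3 and 0.05 without Msr1-/- 1. Psmb2 stood at 1405, 1285, 1281 and 1598 in wild type and 1398, 1603, 1762, 1731 and 1739 in Msr1-/-, where Msr1-/- 2 to 5 lay above every wild-type liver. Its log2 fold change was 0.24 (95% interval -0.01 to 0.49, limma adjusted p = 0.338).

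Genes of the 19S cap stood slightly higher on balance in Msr1-/- livers, with no call. A positive log2 fold change was found in 15 of the 17, with a median of 0.12, beside 52.7% of all tested genes. All 6 genes of the ATPase ring, which threads substrates into the core, were positive by small amounts, between 0.03 and 0.17, and each had an interval within 1.5-fold. Psmc4 stood at 1743 ± 166 against 1927 ± 88.6 and Psmc2 at 1611 ± 57.2 against 1754 ± 121 (limma adjusted p = 0.542 and 0.611). Of the 11 non-ATPase genes 9 were positive, with a median of 0.16, and Psmd8 and Psmd6 were negative, at -0.14 and -0.01. The value of Psmd8 was 0.15 without wild type 3.

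Psmd14, which encodes the cap's deubiquitinase, was the only member whose genotypes did not overlap. It read 912, 667, 902 and 736 in wild type and 1117, 1025, 947, 918 and 990 in Msr1-/-, although the gap between wild type 1 and Msr1-/- 4 was small. Its log2 fold change was 0.32 (standard error 0.12, 95% interval 0.05 to 0.59, limma adjusted p = 0.229). Of all tested genes, 3.3% were higher without overlap and 3.99% lower without overlap, 7.29% together, so 1 of 48 is no excess. Psmd1, the largest scaffold subunit gene of the cap base along with Psmd2, stood at 980, 609, 1211 and 721 against 1500, 1111, 935, 959 and 1072. Its log2 fold change was 0.37 (95% interval -0.09 to 0.83, limma adjusted p = 0.446). It was 0.21 without wild type 2 and 0.54 without wild type 3 (limma adjusted p = 0.114 for the latter).

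Other regulators of the core differed little. Psme3, the subunit of the nuclear 11S activator, was 742 ± 70.3 against 806 ± 20.3, and Psmf1, the inhibitor PI31, 511 ± 68.6 against 570 ± 39.7 (limma adjusted p = 0.621 and 0.567). Psme4, the activator PA200, had a log2 fold change of 0.01 but a wide spread, from 870 to 1649 in wild type and from 1018 to 1713 in Msr1-/-.

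Among 7 assembly chaperone genes, 4 were positive and 3 negative with a median of 0.02, which was -0.05 without wild type 3. Psmg4, a chaperone of alpha ring assembly, was the member of smallest p, at 200, 210, 152 and 205 in wild type and 111, 152, 147, 173 and 118 in Msr1-/-. Wild type 1, 2 and 4 were nearly equal and above all Msr1-/- livers, while wild type 3 lay within the Msr1-/- range. The log2 fold change was -0.46 (standard error 0.17, 95% interval -0.82 to -0.09, limma adjusted p = 0.210). Without wild type 3 it was -0.56, with limma, edgeR and DESeq2 adjusted p of 0.0653, 0.0626 and 0.0279. Only the DESeq2 fit without that liver called Psmg4, and that fit called 8.26% of all genes. The edgeR and limma fits without it called 5.12% and 4.91%. Psmd9, a chaperone of the cap base, was 435 ± 29.6 against 470 ± 46.3 (limma adjusted p = 0.727).

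Wild type 3 and Msr1-/- 1 departed from their own groups in much the same way over these genes. All 5 inducible members were lower in each of these livers than the mean of the others of the genotype, by a median of -0.55 on the log2 scale in wild type 3 and -0.52 in Msr1-/- 1. The cap non-ATPase genes went the other way, with 8 of 11 higher in wild type 3 (median 0.52) and 9 of 11 higher in Msr1-/- 1 (median 0.16). Psmd8 stood at 3392 in wild type 3, and at 1518, 1343 and 1653 in the other wild-type livers. Over the 48 members the deviations of these livers correlated at r = 0.72 (Spearman 0.82), and 40 of 48 (83.3%) had the same sign. Over all 12937 tested genes r was 0.40 (Spearman 0.44), and 67.3% had the same sign. These are descriptions across genes, which share a library and are not independent. The pair was chosen after seeing the data, and no other pair of livers was compared in this way. The low inducible members of both livers thus partly restate the choice.

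**Figure D4:**
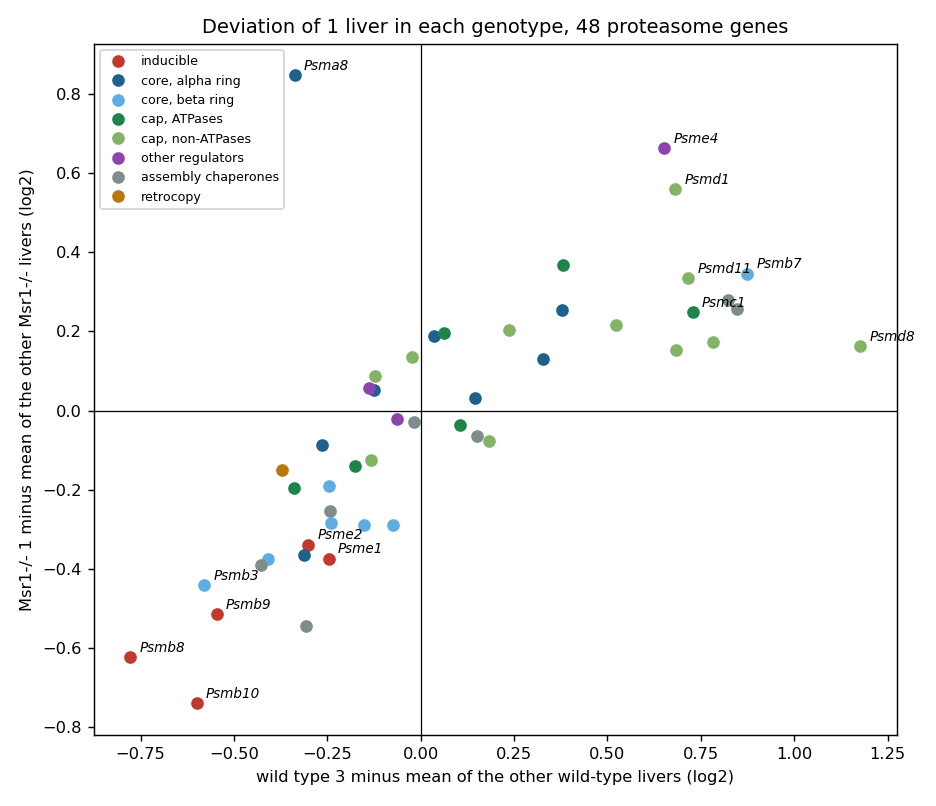
Deviation of wild type 3 from the mean of the other 3 wild-type livers (x axis, log2) against the deviation of Msr1-/- 1 from the mean of the other 4 Msr1-/- livers (y axis, log2), 1 point per tested proteasome gene, coloured by class. Inducible genes gather at the lower left and many cap genes at the upper right, and 40 of the 48 points lie in the quadrants where both livers deviate in the same direction.

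Transcript length went with this split. Across the 48 members, the log2 deviation of a liver from the median of the 9 correlated with log2 length of the principal transcript at r = 0.61 in Msr1-/- 1 and 0.46 in wild type 3, and between -0.34 and 0.27 in the other livers. Across 11743 genes with a length, r was 0.20 in Msr1-/- 1, 0.02 in wild type 3 and between -0.12 and 0.03 in the others. Library preparation or RNA quality was not tested as a part of this. The log2 spread was larger in wild type for 38 of the 48 members, close to the 77.6% among all tested genes, with a median SD of 0.22 against 0.14.

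Without wild type 3, more members lay past an unadjusted p of 0.05. limma then found 13 of 48, against 21.5% of all tested genes, and called none. Psmb7, Psmc1, Psmd1, Psmd2, Psmd7, Psmd11 and Psmd14 were the 7 higher in Msr1-/-, and Psmb3, Psmb8, Psmb10, Psme1, Psme2 and Psmg4 the 6 lower. The genotypes then did not overlap in 3 members that were higher, Psmc2, Psmd7 and Psmd14, and 4 that were lower, Psmb4, Psmb8, Psme2 and Psmg4, while 7.42% and 6.7% of all tested genes did so. With Msr1-/- 1 also left out, an alternative added after seeing the data, limma again called 0 members, where 3.89% of all genes were called.

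Per kilobase of principal transcript, class medians were highest for the constitutive core rings and lowest for the chaperones and alternative regulators, with wide ranges within a class. Psma8, of the core, was the lowest tested member at 9.66, and the cap gene Psmd4 ranked among core genes at 1644. Psmb6 was highest, at 3925 ± 558 in wild type and 3859 ± 498 in Msr1-/- normalised reads per kilobase, followed by Psma7 and Psma4. The medians over livers of both genotypes were 1638 for 7 constitutive beta genes, 1003 for 8 alpha genes, 987 for the cap ATPases and 642 for the cap non-ATPases. Those of the chaperones and of Psme3, Psme4 and Psmf1 were 175 and 187. Inducible members were split by role, with Psme1 and Psme2 at 1520 and 1339 and Psmb10, Psmb8 and Psmb9 at 511, 324 and 315.

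Partners of the proteasome that carry no Psm name were listed separately, 26 genes for maturation, ubiquitin receptors, deubiquitinases, shuttles and ubiquitin itself, of which 23 were in the table and tested. None was called, 19 were positive and 4 negative, and the median log2 fold change was 0.14. Rps27a, a fusion gene of ubiquitin and a ribosomal protein, had the smallest p, at 2905 ± 263 in wild type and 2046 ± 211 in Msr1-/- (1.42-fold lower, limma adjusted p = 0.0540). That p was 0.0358 once wild type 3 was left out. Uba1, the main ubiquitin-activating enzyme, stood at 1538 ± 255 against 2072 ± 229 and the proteasome deubiquitinase gene Usp14 at 584 ± 41.7 against 736 ± 93.0 (limma adjusted p = 0.149 and 0.202). Pomp, which encodes the maturation factor of the core, had a log2 fold change of -0.06. Nfe2l1, the transcription factor that drives subunit genes when the proteasome is short, averaged 1033 ± 269 in wild type and 1229 ± 122 in Msr1-/- (limma adjusted p = 0.450). In the limma fit that left out wild type 3 its log2 fold change of 0.44 had an adjusted p of 0.0424.

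Genes around the immunoproteasome were not called either. In the 12 genes of peptide supply and loading of MHC class I, 7 were positive and 5 negative with a median of 0.03. Tap1 and Tap2, which flank Psmb8, had log2 fold changes of 0.17 and 0.06 (0.11 and -0.06 without wild type 3), against -0.42 for Psmb8 between them. Calr, H2-D1 and Pdia3 had the smallest p values of this list (log2 fold changes 0.45, -0.27 and 0.24, limma adjusted p = 0.152, 0.338 and 0.510). Nlrc5, the transactivator of the class I pathway, including Psmb9, stood at 459 ± 178 against 368 ± 69.5 (limma adjusted p = 0.779), with a log2 fold change of -0.55 without wild type 3.

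Interferon genes stood lower on balance in Msr1-/- livers, with no call. Of 29 tested genes of interferon signalling and response, 22 were negative with a median of -0.26, 10 were lower at an unadjusted p under 0.05 (8% of all tested genes were) and 0 were called. The median was -0.17 without wild type 3. The list pools genes of several interferons, and a response to interferon gamma alone was not tested. Its 7 positive genes included Igtp, Iigp1 and Irgm1 (0.32, 0.11 and 0.08), while Gbp3 and Ifi47 were at -0.56 and -0.72. The smallest p values were those of Mx1 (60.0 ± 9.53 against 34.9 ± 6.85), Ifi47 (469 ± 148 against 277 ± 40.3) and Oasl2 (123 ± 44.6 against 65.3 ± 12.9), with limma adjusted p of 0.0926, 0.0979 and 0.101. Irf1, a transcription factor that acts at immunoproteasome promoters, had a log2 fold change of -0.11 (limma adjusted p = 0.873). Irf9, a neighbour of Psme2, was at -0.09.

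Markers of immune cells, which carry immunoproteasomes, stood lower in Msr1-/- livers, and so did those of other nonparenchymal cells. The summed level of 12 macrophage and Kupffer cell markers ran from 10117 to 23732 in wild type and from 5811 to 7840 in Msr1-/-, with 12 of 12 lower in mean. The lymphocyte sum, over 16 genes (T, NK and B cell markers and the pan-leukocyte gene Ptprc), was 1110 to 1440 against 474 to 708. Of these genes, 15 of 16 were lower in mean. Cholangiocyte markers summed to 619 to 1675 against 250 to 545, with 5 of 5 lower. Without wild type 3 the wild-type sums ran from 619 to 700, with 4 of 5 lower. Sinusoidal endothelium and stellate cell markers were lower in mean in 7 of 7 each, with overlapping sums, and in 3 and 6 of 7 without wild type 3. The summed inducible members ran from 4049 to 5731 against 3282 to 4530. No marker of these lists was at 0 in every liver. Wild type 3, with the highest macrophage sum of 23732, had the lowest inducible sum of the wild-type livers, 4049. Its lymphocyte sum, 1110, was also the lowest of the wild-type livers. Msr1-/- 1 was the lowest Msr1-/- liver in both the lymphocyte sum, 474, and the inducible sum, 3282. In whole liver RNA, fewer cells of a type and less RNA per cell cannot be told apart, and the part of immune cells in the level of Psmb8 was not tested. The 9 hepatocyte markers in the table, Alb among them, summed to 1383697 to 2096617 against 1785748 to 2423300, as in liver tissue.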

How the data were processed

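The authors deposited 1 normalised signal table, in which each liver's reads per gene were scaled by that liver's size factor. Per the submitters' processing notes the tools were STAR, HTSeq and DESeq2 on mm10 (versions are not given in the sources used here), and per the labels' protocols the kit was a TruSeq RNA kit. Genotype and animal number were read from the titles. All values (100%) were whole multiples of a step within 0.01 reads, so whole reads were recovered for edgeR and DESeq2. The main test was limma 3.58.1 (R 4.3.3) with an intensity trend on log2(value + 1), genotype as the only term, genes with a mean of 10 or more, and Benjamini-Hochberg adjustment over all of them. As alternatives, edgeR 4.0.16, DESeq2 1.42.0, TMM and quantile scaling, array weights, pseudocounts of 0.5 and 5, other filters (none, or a mean of 50), a block for animal number, and fits lacking 1 liver were run. The fit was checked on simulated counts. Coordinates and principal (APPRIS) transcript lengths came from GENCODE M21. The members, the lists and the naming rule were chosen with earlier results of these data known. The rule names the inducible members and their counterparts, called members, the 2 of smallest p per class, those of highest and lowest mean, and from each further list the 3 of smallest p and fixed control genes. A control gene of the further lists is not reported here. Other members and some genes of the further lists are named for their values. The labels do not say how animals were housed or processed. No 2 libraries were duplicates (lowest chi-square per degree of freedom 16.3).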

Additional observations from a re-analysis of the deposited data

Results flagged for a closer look

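In 6 of the 96 groups of livers (48 genes in 2 genotypes) the highest or lowest liver lay far from the others of its genotype by Dixon's test at the 95% level, and chance gives about 1 in 20 such groups. All 6 were wild type 3 or Msr1-/- 1. Wild type 3 also stood apart over all tested genes, and the share of groups flagged among those genes was not computed. In wild type 3, Psmb3 was low at 977 (others 1440 to 1485), Psmb4 low at 1873 (others 2185 to 2229) and Psmd8 high at 3392 (others 1343 to 1653). In Msr1-/- 1, Psmc1 was high at 1282 (others 1057 to 1101), Psmd8 high at 1825 (others 1611 to 1648) and Psme2 low at 975 (others 1192 to 1262). The cause was not tested.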

How the results depend on the processing

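Of the alternatives run, only DESeq2 without wild type 3 called members, 2 in all (Psmb8 and Psmg4), of which 1 was inducible. The number of called genes over the whole table, 177, became 773 with DESeq2, 531 with array weights, 656 and 1059 with edgeR and DESeq2 without wild type 3, and 500 without wild type 3 and Msr1-/- 1. It ran from 36 to 629 with 1 liver left out. With the replicate block (animals 1 to 4 of each genotype) 10 genes and 0 members were called. The deviations of same-numbered animals correlated at 0.02, -0.08, -0.10 and 0.22, so the numbers were not taken to pair the animals. The log2 difference of Msr1 ran from -0.72 to -0.31 on leaving out a liver. Among the genes named by rule, 3 with small differences changed sign. For Psmb9 (0.08) the log2 fold change was -0.0675 and -0.0628 with edgeR and DESeq2 without wild type 3, and ran from -0.0516 (limma without wild type 3) to 0.253 with 1 liver left out. For Psmb6 (-0.02) it ran from -0.125 to 0.0524 with 1 liver left out, and was positive without wild type 2, wild type 4 or Msr1-/- 1. For Psma8 (0.03) it was -0.0685 with array weights, -0.0373 and -0.0284 with edgeR and DESeq2 without wild type 3 and -0.221 without both livers, and ran from -0.137 to 0.234 with 1 liver left out. The median of the ATPase genes was 0.0477 under quantile scaling, and that of the chaperones -0.0647 without wild type 2. The cause was not tested.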
